A study of Mus musculus with 8 samples.

Results

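Integrins are paired adhesion receptors, and the genes described here encode 10 of their chains that are used by leukocytes: the alpha chains Itgal, Itgam, Itgax, Itgad, Itgae, Itga4 and Itgav and the beta chains Itgb2, Itgb7 and Itgb1. The chains were chosen by gene name, and each of the 10 had a row among the 13786 genes of the count table. Their transcripts were measured by bulk RNA-Seq in CD11c-positive splenocytes, labelled as dendritic cells, from 4 C57BL/6 and 4 B6.SLE123 female mice. All mice were 7 weeks old and the labels name no treatment, so the strain is the comparison. B6.SLE123 is a lupus-prone congenic line that carries susceptibility intervals on the C57BL/6 background, and C57BL/6 mice are the control. The 8 libraries held 25563070 to 37367094 counts assigned to genes.

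An integrin is built from an alpha chain and a beta chain, and a chain reaches the cell surface only with a partner. Itgb2 (CD18) pairs with Itgal (CD11a), Itgam (CD11b), Itgax (CD11c) and Itgad (CD11d) to make the leukocyte-restricted integrins, which bind ICAMs, complement fragments or VCAM1. Itgb7 pairs with Itgae (CD103), a receptor for E-cadherin on dendritic cells and T cells, and with Itga4, whose product binds MAdCAM1. Itga4 also pairs with Itgb1 as a receptor for VCAM1 and fibronectin, and Itgav pairs with Itgb1, Itgb3, Itgb5 or Itgb8 and binds proteins such as vitronectin, or latent TGF-beta. In mouse spleen, CD11c is used to select dendritic cells, CD103 is found on a set of conventional dendritic cells, and CD11d is known from red pulp macrophages.

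The genes for 3 of the Itgb2 partners lie next to each other on the plus strand of chromosome 7 (mm10). Itgam (chr7:128062640-128118491) ended 11055 bp before Itgax (chr7:128129547-128150657), and Itgax ended 3718 bp before Itgad (chr7:128154376-128223816). Itgal (chr7:127296260-127335138) lay 727501 bp upstream of Itgam on the same strand. The sequences before the starts of Itgam and Itgax are shown because these neighbouring genes moved in opposite directions between the strains. Each is the 250 bases that precede the RefSeq start (GRCm38.p6, plus strand, written 5′ to 3′), chr7:128062390-128062639 for Itgam and chr7:128129300-128129549 for Itgax, with capitals marking matches on either strand to GAGGAA (a core of PU.1 and related ETS factors), TGTGGT (RUNX) or TGAGTCA (AP-1).
Itgam: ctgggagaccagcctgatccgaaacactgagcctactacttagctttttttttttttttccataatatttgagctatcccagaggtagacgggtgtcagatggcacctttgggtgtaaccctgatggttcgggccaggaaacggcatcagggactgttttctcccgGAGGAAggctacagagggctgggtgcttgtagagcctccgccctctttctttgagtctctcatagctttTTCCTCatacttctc
Itgax: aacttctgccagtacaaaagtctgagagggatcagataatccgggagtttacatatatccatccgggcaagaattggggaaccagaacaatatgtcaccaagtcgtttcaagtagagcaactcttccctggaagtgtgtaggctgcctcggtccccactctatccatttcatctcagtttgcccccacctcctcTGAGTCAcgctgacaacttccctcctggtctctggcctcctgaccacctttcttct
GAGGAA or its reverse complement occurred at 2 places before Itgam, with its leftmost base 84 and 15 bases before the start, and at none before Itgax, where TGAGTCA began 56 bases before the start. RefSeq sequences were found for 6 of the 10 members, and Itgal, Itgad, Itgae and Itgb2 had no entry. The GAGGAA letters occurred 2 times before Itgav and 1 time before Itgb1, and TGTGGT occurred 1 time before Itga4. None of the 3 motifs, which share no overlapping match here, was found in the window before Itgb7. Of 32851 promoter windows of 250 bases, 23.3% held GAGGAA, 14.0% held TGTGGT and 4.46% held TGAGTCA. A match describes letters in the window and shows no binding.

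Of the 10 chains, 9 differed between the strains, 5 higher in B6.SLE123 mice (Itgal, Itgax, Itgae, Itga4 and Itgb7) and 4 lower (Itgam, Itgad, Itgav and Itgb2). A gene was called when its edgeR quasi-likelihood p, adjusted over all genes by Benjamini-Hochberg, was below 0.05. By the same rule 53.4% of all genes were called, 26.7% higher and 26.6% lower, and 61.6% of the genes with a mean of at least 25 CPM (counts per 1000000 after TMM scaling), a floor that every member passed. Only Itgad and Itgae among the 10 changed more than 2-fold, against 11.1% of all genes that were called and changed more than 2-fold. The 4 mice of each strain did not overlap for 7 of the 10 chains, against 48.9% of all genes. The median log2 fold change (B6.SLE123 over C57BL/6) was 0.10 over the 10 chains and 0.00 over all genes.

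**Figure D1:**
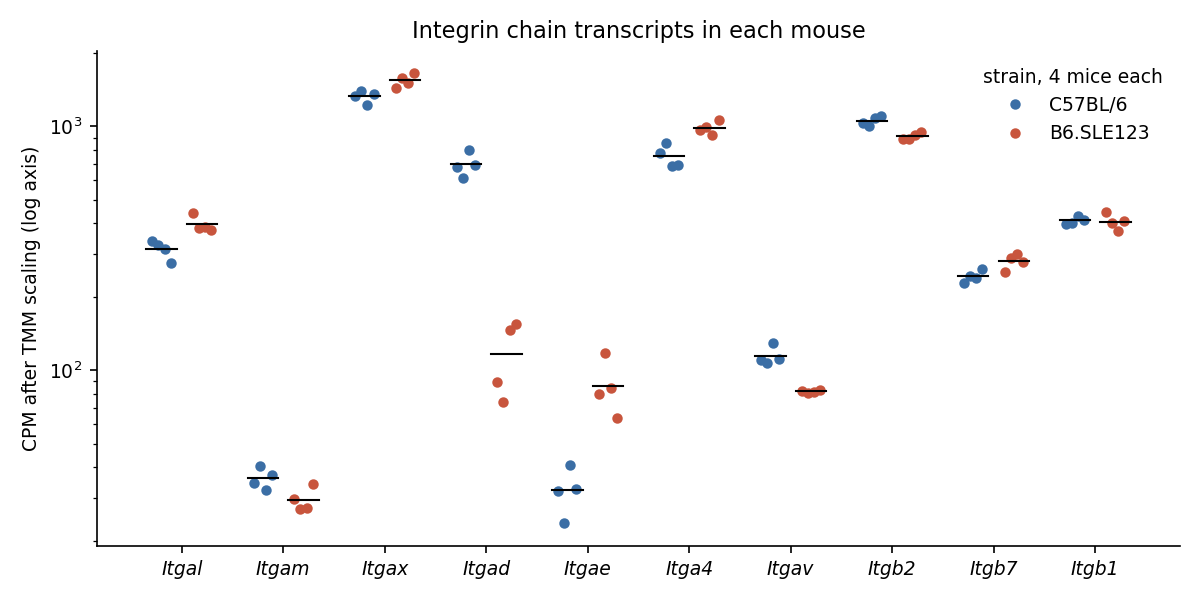
CPM after TMM scaling (log axis) of the 10 integrin chains, with a point for each mouse, the 4 mice of a strain set side by side in replicate order, and a line at the mean of each strain. Itgad fell from a mean of 699.3 to 116.0 CPM and Itgae rose from 32.2 to 86.4 CPM, whereas the means of the other 8 chains differed by less than 2-fold.

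Itgad, the CD11d chain, changed most. Its level was 684.2, 616.3, 801.1 and 695.7 CPM in C57BL/6 mice 1 to 4 and 89.0, 74.2, 145.7 and 154.9 CPM in B6.SLE123 mice 1 to 4. Every lupus-prone mouse was below every control mouse, and mice 3 and 4 of the lupus-prone strain were higher than mice 1 and 2. The mean was 699.3 ± 76.4 CPM (SD, n = 4) in C57BL/6 and 116.0 ± 40.3 (SD, n = 4) in B6.SLE123, a 6.04-fold fall (log2 fold change -2.59, SE 0.21, edgeR adjusted p = 3.05e-06). Of all genes, 1.87% changed by more than Itgad in either direction. The spread relative to the mean was 10.9% in C57BL/6 and 34.8% in B6.SLE123. In these bulk samples, fewer cells that express a gene and less of its RNA in each cell cannot be told apart.

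Markers of red pulp macrophages, a cell type that a CD11c-positive fraction of spleen can hold, moved with Itgad. All 12 markers of the list fell (log2 fold changes from -2.75 to -1.05), 3 of them more than Itgad and 9 less, against 26.6% of all genes called lower. Their summed level was 12640 to 16050 CPM in C57BL/6 and 1916 to 3664 CPM in B6.SLE123 mice. Itgad minus the mean of the markers was -0.34 ± 0.04 (log2, SD, n = 4) in C57BL/6 and -0.66 ± 0.15 in B6.SLE123, a difference of -0.32 without overlap between strains (exact two-sided permutation p = 0.0286, adjusted p = 0.0381 over 8 such comparisons, which were chosen after the values were seen). Itgad was thus lower in B6.SLE123 also relative to the mean of these markers, by less than the change of that mean, -2.33. The mean includes Treml4 (-1.05) and Adgre1 (-1.66), which fell least, whereas Mertk (-2.75), Spic (-2.73) and Slc40a1 (-2.68) fell more than Itgad. The difference without Treml4 and Adgre1 was not tested. Across the 8 mice, deviations from the strain means of Itgad and of the marker mean correlated at r = 0.98, where the points share library and scaling. The genes whose log2 CPM followed Itgad most closely were Mrc1 (the mannose receptor; Pearson r = 0.9999 over 8 mice, 0.9975 for deviations from the strain means), Ctsf (a lysosomal protease; 0.9998 and 0.9968) and Plpp3 (a lipid phosphatase; 0.9995 and 0.9933). The part of the red pulp signal in the Itgad difference was not tested beyond these values.

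**Figure D2:**
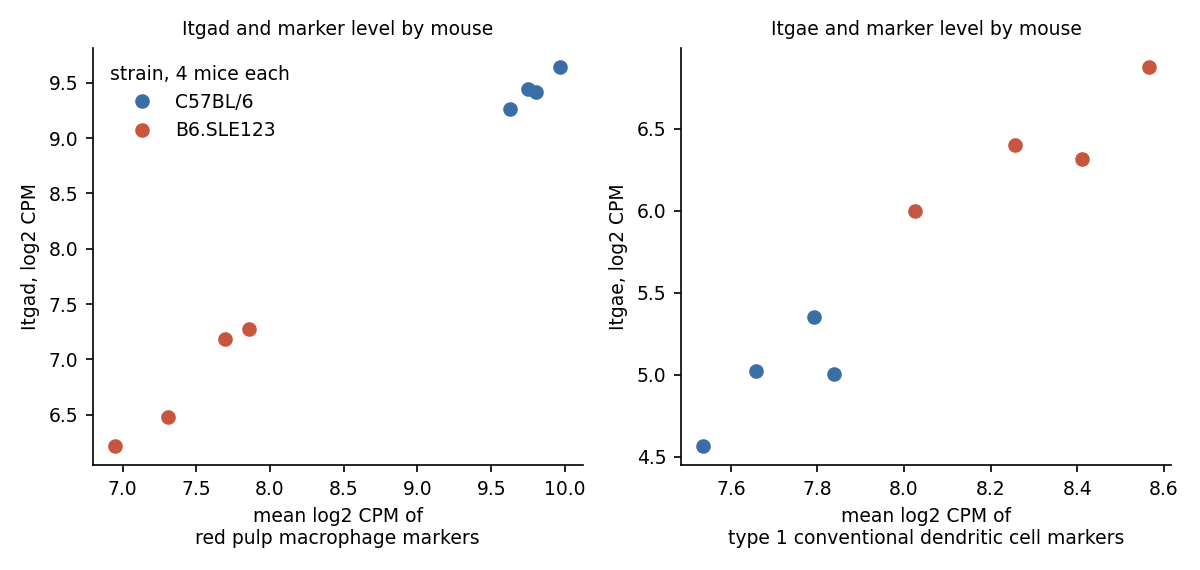
log2 CPM of Itgad (left) and Itgae (right) in each of the 8 mice on the vertical axes, against the mean log2 CPM of 12 red pulp macrophage markers and of 9 type 1 conventional dendritic cell markers on the horizontal axes. The strains are separate on all 4 axes, with Itgad and its markers lower and Itgae and its markers higher in B6.SLE123 mice.

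Itgad shares its locus with other genes, and 80.3% of its 4510 exon bases are exon of no other annotated gene on either strand (92.7% counting only its own strand, where the pseudogene Gm17831 overlaps). The gene Cox6a2, a subunit of cytochrome c oxidase, lies inside Itgad on the opposite strand (chr7:128205435-128206387), and 70 of its 680 exon bases are also Itgad exon. Cox6a2 went from 34.3 ± 3.49 to 5.28 ± 1.45 CPM (SD, n = 4 each; log2 fold change -2.71, SE 0.16, adjusted p = 5.17e-07), and its counts equalled 4.85% of those of Itgad. The library kit keeps strand, but whether counting used it is not given in the sources used here, so reads of the overlapping genes may not be told apart. Among 31 other genes within 500000 bp on either side of the Itgam to Itgad cluster, 15 were called (48.4%, against 53.4% of all genes), 7 higher and 8 lower. Cox6a2 was the only called gene there that fell more than 2-fold. The next lowest log2 fold change there was -1.18 for Prss53, which was not called (adjusted p = 0.0976, means of 0.271 and 0.114 CPM), and the highest was 0.95.

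Itgax, which encodes the CD11c used to select the cells, was the most abundant of the 10 by CPM. It was measured at 1336, 1398, 1219 and 1363 CPM in C57BL/6 mice 1 to 4 and at 1437, 1582, 1502 and 1652 CPM in B6.SLE123 mice. The strains did not overlap, although the highest control and the lowest lupus-prone mouse were close. The mean rose 1.16-fold, from 1329 ± 77.9 to 1543 ± 93.4 CPM (SD, n = 4 each; log2 fold change 0.22, SE 0.06, adjusted p = 0.00942). All 7 dendritic cell markers of a list with Flt3, Zbtb46 and MHC class II genes were higher too (summed 21510 to 25290 and 26730 to 28230 CPM), against 26.7% of all genes. Itgax minus the mean of these markers was 0.29 in C57BL/6 and 0.19 in B6.SLE123 (log2, exact permutation p = 0.0857, overlapping). Sema3f (r = 0.9879), Tmem131l (0.9874) and Ankrd35 (0.9866) followed the log2 CPM of Itgax most closely over the 8 mice, with 0.9866, 0.9748 and 0.9586 for deviations from the strain means.

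Itgal, the CD11a chain of LFA-1, rose in B6.SLE123 mice. The values were 339.4, 325.3, 315.5 and 276.3 CPM in C57BL/6 and 442.7, 384.3, 385.0 and 374.5 CPM in B6.SLE123 mice 1 to 4. The strains did not overlap, and B6.SLE123 mouse 1 stood above the other 3. The mean went from 314.1 ± 27.1 to 396.6 ± 31.1 CPM (SD, n = 4 each; log2 fold change 0.34, SE 0.07, adjusted p = 0.00223).

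Itgam, the CD11b chain, fell slightly, with overlap between the strains. It was measured at 34.4, 40.3, 32.4 and 37.2 CPM in C57BL/6 and at 29.6, 26.9, 27.1 and 34.0 CPM in B6.SLE123 mice. B6.SLE123 mouse 4 reached into the control range. The mean was 36.1 ± 3.47 CPM in C57BL/6 and 29.4 ± 3.30 in B6.SLE123 (SD, n = 4 each; log2 fold change -0.30, SE 0.09, edgeR adjusted p = 0.0146), and the exact permutation test on the CPM of the single gene gave p = 0.0571. Of the 5024 exon bases of Itgam, 1574 are not shared with Gm49368, an annotated protein-coding gene on the same strand that spans Itgam (log2 fold change -0.32, adjusted p = 0.178, mean 2.16 and 1.73 CPM). How reads in shared exons were assigned is not given in the sources used here, so the level of Itgam is uncertain.

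Itgb2 (chr10:77530252-77565708, plus strand), the common partner of these 4 alpha chains, was lower in B6.SLE123 mice. Its values were 1030, 1003, 1083 and 1102 CPM in C57BL/6 and 885.7, 891.8, 918.9 and 949.5 CPM in B6.SLE123 mice, and the ranges did not overlap. The mean was 1054 ± 46.1 and 911.5 ± 29.2 CPM (SD, n = 4 each; log2 fold change -0.21, SE 0.05, adjusted p = 0.00274). Itgb2 therefore moved in the opposite direction to its partners Itgal and Itgax and in the same direction as Itgam and Itgad.

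Per mouse, the ratio of counts of an alpha chain to its beta chain does not depend on scaling. Relative to Itgb2, Itgad fell by 2.45 on the log2 scale, whereas Itgal rose by 0.55 and Itgax by 0.43, each without overlap between strains (exact two-sided permutation p = 0.0286, the smallest that 4 mice against 4 allow, and adjusted p = 0.0381 over the 8 ratios tested). The log2 ratio of Itgam to Itgb2 was -4.87 ± 0.18 in C57BL/6 and -4.96 ± 0.13 in B6.SLE123 (exact permutation p = 0.457). The strains overlapped for that ratio.

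**Figure D3:**
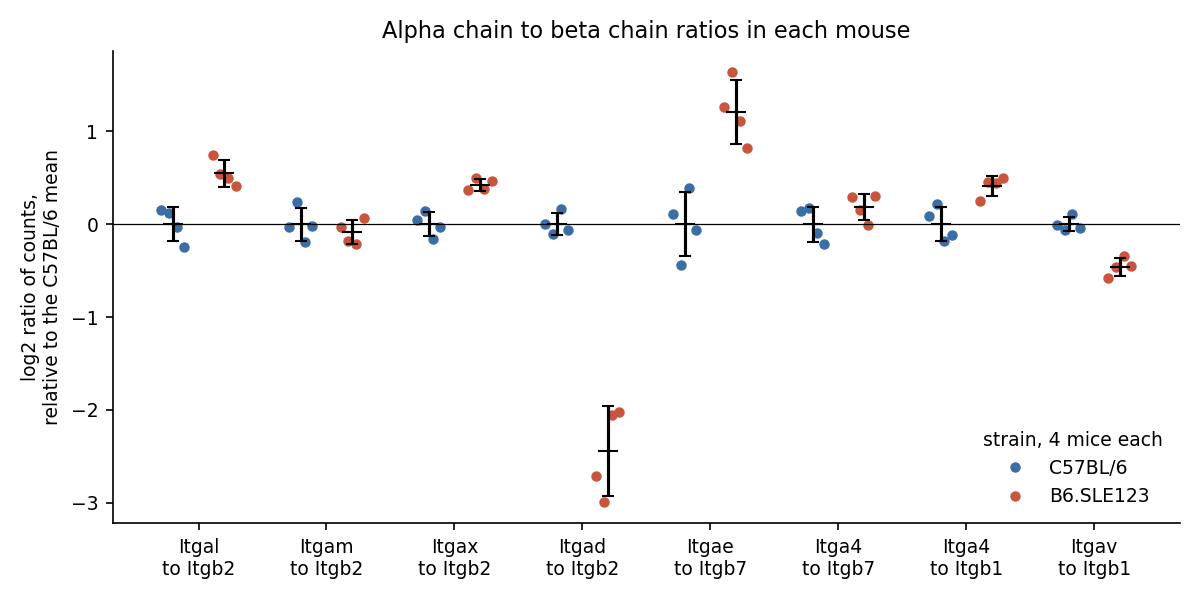
log2 ratio of the counts of an alpha chain to those of a beta chain in each mouse, set relative to the C57BL/6 mean, with a point for each of the 4 mice of a strain and the mean ± SD. Of the 8 ratios, 6 differed between the strains, with the largest differences for Itgad to Itgb2 (-2.45) and Itgae to Itgb7 (1.21).

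Divided by annotated exon length, the transcripts of the 4 alpha chains can be set side by side as shares of their sum. Itgax made up 56.95, 60.0, 52.2 and 58.2% of the sum in C57BL/6 mice 1 to 4 and 76.3, 80.4, 76.5 and 77.8% in B6.SLE123 mice. Itgad made up 31.1, 28.2, 36.6 and 31.6% in C57BL/6 and 5.03, 4.02, 7.90 and 7.77% in B6.SLE123 mice. Itgad thus lost 25.7 percentage points of the sum, Itgax gained 20.9 and Itgal gained 4.85, from 9.82 ± 0.85% to 14.7 ± 1.80% (SD, n = 4 each). These 3 differences each had an exact permutation p = 0.0286 and an adjusted p = 0.0381 over the 4 shares. The shares of a mouse add up to the whole, so the fall of Itgad by itself raises the other shares. The 3 differences are therefore not separate results. In CPM, Itgax rose 1.16-fold and Itgal 1.26-fold. The share of Itgam was 1.48% and 1.42% (exact permutation p = 0.486). Counted over the exon bases that no other gene on the strand shares, Itgam made up 4.46% and 4.36%, and the difference for Itgad was -26.1 percentage points.

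The sum itself was 488.3, 485.3, 485.8 and 487.5 CPM per kb in C57BL/6 mice 1 to 4 and 392.3, 409.6, 409.0 and 442.0 CPM per kb in B6.SLE123 mice. The control mice lay close together, with a coefficient of variation of 0.288%, and all lupus-prone mice were lower. The sum, which was added after the values were seen, went from 486.8 ± 1.40 to 413.2 ± 20.8 CPM per kb (log2 ratio of means -0.24, exact permutation p = 0.0286). Without Itgad it was 331.7 ± 17.0 and 387.5 ± 16.1 CPM per kb (log2 ratio of means 0.22), and Itgb2 was 345.5 and 298.7 CPM per kb. The log2 ratio of the summed alpha chains to Itgb2 was 0.50 ± 0.06 in C57BL/6 and 0.47 ± 0.03 in B6.SLE123 (SD, n = 4 each; difference -0.03, exact permutation p = 0.457), with overlap.

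**Figure D4:**
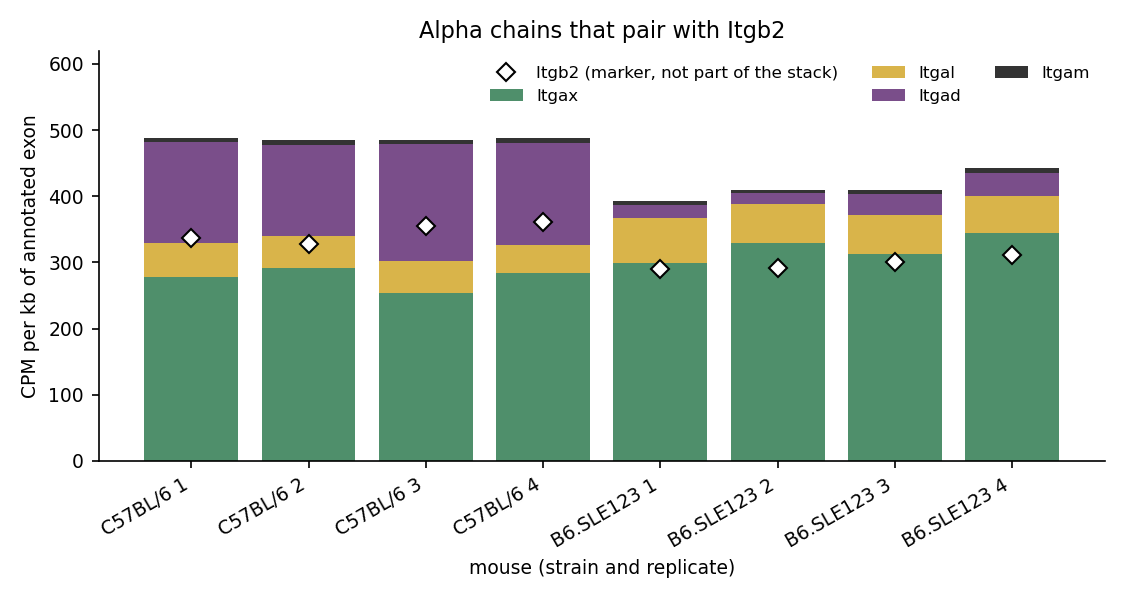
CPM per kb of annotated exon of the 4 alpha chains that pair with Itgb2, stacked for each of the 8 mice, with a diamond for Itgb2 in the same mouse. Itgad fills 28.2 to 36.6% of the stack in C57BL/6 mice and 4.02 to 7.90% in B6.SLE123 mice.

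Itgae (chr11:73090583-73147446, plus strand), the CD103 chain, rose most among the members. It was measured at 32.1, 23.6, 40.8 and 32.4 CPM in C57BL/6 and at 79.6, 117.6, 84.6 and 63.8 CPM in B6.SLE123 mice 1 to 4. All lupus-prone mice were above all control mice, with B6.SLE123 mouse 2 the highest and mouse 4 the lowest of its strain. The mean rose 2.68-fold, from 32.2 ± 7.05 to 86.4 ± 22.6 CPM (SD, n = 4 each; log2 fold change 1.42, SE 0.19, edgeR adjusted p = 9.45e-05), and 1.23% of all genes rose more. The gene Haspin, a histone kinase, lies in an intron of Itgae on the opposite strand with no shared exon base and went from 12.5 to 20.7 CPM (log2 fold change 0.73, adjusted p = 0.000184).

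Markers of type 1 conventional dendritic cells, of which many in mouse spleen carry CD103, moved with Itgae. Of the 9 markers, 7 rose, 1 fell (Batf3) and 1 was not called (Cadm1), against 26.7% of all genes called higher and 26.6% lower. Their summed level was 3362 to 3858 CPM in C57BL/6 and 5073 to 6540 CPM in B6.SLE123 mice. The chemokine receptor Xcr1 had a log2 fold change of 1.23 and the dead-cell receptor Clec9a one of 0.82. Itgae minus the mean of the markers was -2.72 ± 0.23 in C57BL/6 and -1.92 ± 0.18 in B6.SLE123 (log2, SD, n = 4 each; difference 0.80, no overlap, exact permutation p = 0.0286, adjusted p = 0.0381 over the 8 comparisons), and the markers' own mean differed by 0.61. Deviations from the strain means of Itgae and of the marker mean correlated at r = 0.85 over the 8 mice. Over the same mice, Khsrp (r = 0.9946), Azin1 (0.9903) and Sf3a2 (0.9862) followed Itgae most closely, with log2 fold changes of 0.20, 0.24 and 0.11, far smaller than its own.

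Itgb7 (chr15:102215995-102231944, minus strand), the partner of Itgae and Itga4, rose slightly. Its values were 227.2, 244.2, 238.8 and 259.7 CPM in C57BL/6 and 253.8, 289.5, 299.8 and 277.2 CPM in B6.SLE123 mice. C57BL/6 mouse 4 was above B6.SLE123 mouse 1, so that the ranges overlapped. The mean was 242.5 ± 13.5 and 280.1 ± 19.8 CPM (SD, n = 4 each; log2 fold change 0.21, SE 0.06, edgeR adjusted p = 0.0119), and the exact permutation test on CPM gave p = 0.0571. The log2 ratio of Itgae to Itgb7 went from -2.94 ± 0.35 to -1.73 ± 0.34, a difference of 1.21 without overlap (exact permutation p = 0.0286, adjusted p = 0.0381).

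Itga4 (chr2:79255426-79333123, plus strand) rose in B6.SLE123 mice, from 775.6, 853.3, 690.8 and 693.4 CPM in C57BL/6 to 963.3, 998.1, 926.2 and 1059 CPM. The ranges did not overlap. The mean was 753.3 ± 77.5 and 986.6 ± 56.4 CPM (SD, n = 4 each; log2 fold change 0.39, SE 0.07, adjusted p = 0.000938). Cerkl, which overlaps the 3′ part of Itga4 on the opposite strand, was measured at a mean of 2.91 and 2.03 CPM. Relative to Itgb1, Itga4 rose by 0.41 on the log2 scale (exact permutation p = 0.0286, adjusted p = 0.0381), a call that was lost when any single lupus-prone mouse or C57BL/6 mouse 3 or 4 was omitted (6 of 8 omissions, adjusted p up to 0.0762). Relative to Itgb7 the difference was 0.19, with overlap (exact permutation p = 0.2, adjusted p = 0.229).

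Itgb1 (chr8:128685654-128733200, plus strand), the beta chain with the most partners, was the only member that was not called. It was measured at 398.7, 403.3, 430.9 and 413.5 CPM in C57BL/6 and at 443.7, 400.2, 373.0 and 410.8 CPM in B6.SLE123 mice. The lupus-prone mice lay on both sides of the control mice. The log2 fold change was -0.02 (SE 0.05, 95% interval -0.14 to 0.10, edgeR adjusted p = 0.819).

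Itgav (chr2:83724397-83806916, plus strand) was lower in every lupus-prone mouse. It was measured at 110.0, 106.8, 128.8 and 111.1 CPM in C57BL/6 and at 82.5, 80.2, 81.6 and 83.3 CPM in B6.SLE123 mice. The ranges did not overlap, and the B6.SLE123 mice lay within a narrow range. Of its exon bases, 94.1% are exon of no other gene, and the rest overlap Gm13684 on the opposite strand. The mean fell 1.39-fold, from 114.2 ± 9.90 to 81.9 ± 1.31 CPM (SD, n = 4 each; log2 fold change -0.48, SE 0.06, adjusted p = 4.56e-05), and relative to Itgb1 Itgav fell by 0.46 on the log2 scale (exact permutation p = 0.0286, adjusted p = 0.0381).

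In levels per length, the order of the chains differed between the strains. In C57BL/6 the order was Itgb2 (345.5 CPM per kb), Itgax (276.7), Itgad (155.1), Itgb1 (100.9), Itgb7 (87.5), Itga4 (53.9), Itgal (47.8), Itgav (10.6), Itgam (7.18) and Itgae (7.03). Neighbours overlapped only for Itga4 with Itgal and for Itgam with Itgae. In B6.SLE123 it was Itgax (321.3 CPM per kb), Itgb2 (298.7), Itgb7 (101.1), Itgb1 (99.7), Itga4 (70.6), Itgal (60.4), Itgad (25.7), Itgae (18.9), Itgav (7.62) and Itgam (5.85). Here Itgax with Itgb2, Itgb7 with Itgb1, Itga4 with Itgal and Itgad with Itgae overlapped. Itgad went from rank 3 to rank 7. The place of Itgam holds only for its full exon length: over its 1574 unshared bases it would be at 22.9 ± 2.20 CPM per kb in C57BL/6, above Itgav, and at 18.7 ± 2.10 in B6.SLE123 (SD, n = 4 each), with a range that overlaps that of Itgae.

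Among the 13 other integrin chains in the table, 5 were higher, 5 lower and 3 not called, with a median log2 fold change of 0.19. This stands beside 53.4% of all genes called. Chains that fell more than 4-fold were Itga1, a collagen receptor chain (11.7 to 1.43 CPM, log2 fold change -3.05, adjusted p = 9.78e-07), Itga9, a partner of Itgb1 (272.5 to 57.4 CPM, -2.25, adjusted p = 2.89e-06) and Itgb5, a partner of Itgav (218.7 to 47.3 CPM, -2.21, adjusted p = 5.87e-06). Of the other partners of Itgav, Itgb3 went from 31.1 to 25.5 CPM (-0.29, adjusted p = 0.0448) and Itgb8 from 0.319 to 1.62 CPM (2.37, adjusted p = 0.000459), a low level in both strains. Itga8 (1.04), Itga3 (0.97) and Itga6 (0.79) rose and Itga10 (-0.57) fell, each with a mean below 20 CPM in both strains. Itgb5 and Itga9 were therefore, with Itgad, the chains above 100 CPM in C57BL/6 that changed most.

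**Figure D5:**
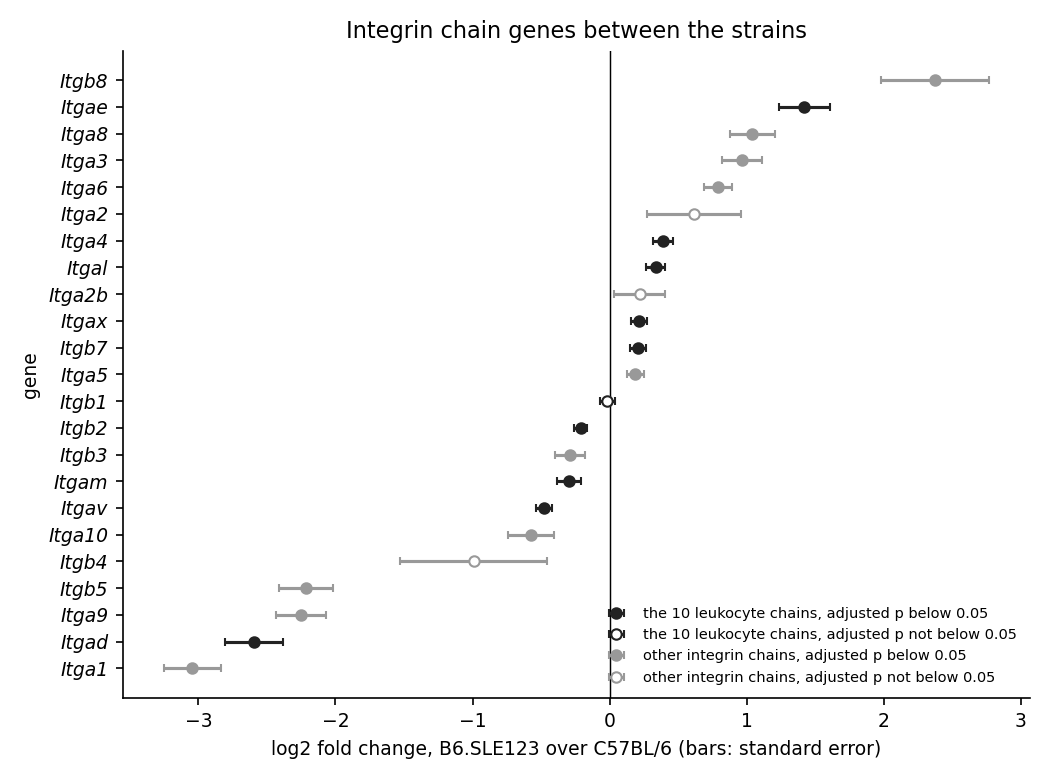
log2 fold change (B6.SLE123 over C57BL/6, horizontal axis) with its standard error for each integrin chain gene, with the 10 leukocyte chains in black, the 13 other chains in grey and open symbols where the adjusted p was not below 0.05. Itga1, Itgad, Itga9 and Itgb5 lie below -2, and Itgb8 and Itgae are the highest.

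Of 16 integrin ligand genes in the table, 8 fell, 2 rose and 6 were not called, with a median log2 fold change of -0.50. By the same rule 26.6% of all genes were lower and 26.7% higher. Vcam1, a ligand of Itga4 and Itgad integrins that also belongs to the red pulp list, fell from 2471 to 453.4 CPM (log2 fold change -2.45, adjusted p = 4.21e-06) and was the most abundant gene of the list in C57BL/6 mice. Fn1 (fibronectin, -1.66), F11r (a junctional ligand of LFA-1, -1.45), Icam5 (-1.23), Thy1 (-0.996), C3 (the source of the complement ligand of CD11b and CD11c, -0.49) and Cdh1 (E-cadherin, the ligand of CD103, -0.65, from 4.68 to 2.98 CPM) were lower. Mfge8, a ligand of Itgav integrins, rose (0.46, adjusted p = 0.0102). Icam1 also rose, from 339.7 to 397.7 CPM (0.23, adjusted p = 0.000977).

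Of 18 genes that activate integrins from inside the cell, 4 rose, 4 fell and 10 were not called, with a median log2 fold change of -0.07. The share called over all genes was 53.4%. Tln1, the main talin, which binds beta chain tails, was measured at 1549 and 1649 CPM (log2 fold change 0.09, adjusted p = 0.0965), and Tln2 rose from 1.77 to 8.53 CPM (2.26, adjusted p = 7.05e-07). Rasgrp2, the exchange factor that activates Rap1, fell from 188.4 to 61.8 CPM (-1.61, adjusted p = 1.63e-06). The kindlin Fermt3 (-0.17), the GTPase Rap1b (-0.37) and the adapter Fyb (-0.32) were lower and Rapgef1 (0.37), Skap2 (0.34) and Dok1 (0.32) higher, each by less than 1.5-fold.

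Of 23 genes that act downstream of bound integrins or link them to actin, 12 fell, 5 rose and 6 were not called, with a median log2 fold change of -0.26. Over all genes, 26.6% were called lower and 26.7% higher. The signalling adapters Fcer1g (314.9 to 140.5 CPM, log2 fold change -1.17, adjusted p = 7.27e-07) and Tyrobp (447.8 to 295.6 CPM, -0.60, adjusted p = 8.19e-06) fell, as did the kinase Syk (643.6 to 485.5 CPM, -0.41, adjusted p = 0.000176). Parvb (-1.31), Vasp (-0.55), Lcp2 (-0.49) and the kinase Fgr (-0.36) were lower, and the focal adhesion adapter Lims1 was higher (0.55). The 12 red pulp macrophage markers fell in the same mice (median log2 fold change -2.42), and their part in the falls among the other integrin chains, the ligands and the activating and downstream genes was not tested.

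The defining genes of the labelled dendritic cells were present. Beside the red pulp list, markers of other cells were measured, and several sums were carried by a single gene. The counts of markers that rose or fell stand beside 26.7% of all genes called higher and 26.6% lower. Summed over their lists, B cell markers were at 771.8 to 874.6 CPM in C57BL/6 and 672.1 to 793.6 CPM in B6.SLE123 mice, with overlap. Of these 9 markers 6 fell and 1 rose (Cd22), and without Cd22 the sums were 528.5 to 631.0 and 365.4 to 452.8 CPM. Monocyte markers were at 388.1 to 489.9 and 252.4 to 364.9 CPM, but only Nr4a1 of the 6 was called (287.8 to 156.9 CPM), and the other 5 summed to 134.7 to 184.2 and 106.2 to 209.6 CPM. Neutrophil markers were at 84.6 to 93.4 and 28.6 to 41.6 CPM (2 of 6 rose and 2 fell). Most of this was Csf3r (76.5 to 25.2 CPM), and the other 5 summed to 9.50 to 14.4 and 5.74 to 14.0 CPM. T cell markers (45.7 to 53.8 and 48.8 to 56.95 CPM), NK cell markers (23.9 to 40.3 and 17.5 to 34.3 CPM) and platelet markers (3.66 to 5.11 and 3.38 to 5.38 CPM) were low in both strains. Type 2 conventional dendritic cell markers were at 2799 to 2957 and 1977 to 2363 CPM (2 of 9 rose and 2 fell). Without Sirpa, which fell from 1784 to 950.5 CPM, the other 8 were at 1060 to 1156 and 1114 to 1280 CPM, a mean that was higher in B6.SLE123. Plasmacytoid dendritic cell markers, which include Cox6a2, were at 274.8 to 294.5 and 236.9 to 288.3 CPM. Of these 6 markers 1 rose (Siglech, log2 fold change 0.45, adjusted p = 0.0117) and 2 fell. Without Cox6a2 the sums were 237.7 to 264.4 and 233.3 to 281.9 CPM, with overlap and a slightly higher mean in B6.SLE123 (248.7 and 256.8 CPM). Itgal, Itga4 and Itgb7, which B cells also express, rose by 0.77, 0.82 and 0.64 on the log2 scale relative to the mean of the B cell markers, and Itgal by 0.44 relative to the T cell markers (exact permutation p = 0.0286 and adjusted p = 0.0381 for each, without overlap). Their own log2 fold changes were 0.34, 0.39 and 0.21, and the marker means differed by -0.43 (B cell) and -0.10 (T cell). The 7 dendritic cell markers had a median log2 fold change of 0.32, and these 3 chains were not set against them. The part of B or T cells in these levels was not tested. For Itgam against the monocyte markers the difference was -0.13, with overlap (exact permutation p = 0.571).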

How the data were processed

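RNA of CD11c-positive splenocytes of 8 mice was sequenced after a stranded mRNA library preparation. Per the labels and the methods of the study, reads were trimmed with cutadapt, checked with FastQC, aligned to mm10 with STAR and counted per gene with featureCounts. Versions, the annotation and the strand and overlap settings are not given in the sources used here. The deposited table holds raw counts, which were used, and the authors' own comparison by DESeq2 (columns of normalized signal, log2 fold changes, a score, p-values and a fold ratio), which was not used. No column of per-sample values was left unmapped (0). Strains were taken from the sample titles. The genotype field of the B6.SLE123 mice ends in a number that differs from mouse to mouse.

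Counts of all 13786 genes were fitted with edgeR 4.0.16 (R 4.3.3, TMM, quasi-likelihood test, no further filter) and adjusted by Benjamini-Hochberg. CPM are TMM-scaled. SE is the log2 fold change divided by the root of F, and log2 CPM used a prior count of 2. Levels per kb used the union of GENCODE M21 exons, whose coordinates matched those in the table for all 10 members. Ratios, shares and sums were compared per mouse by exact two-sided permutation tests. The members and lists were chosen with earlier results of these data known. Named were all members, up to 8 called genes per pathway list by absolute log2 fold change, and for Itgad, Itgae and Itgax the 3 genes with the highest Pearson r among genes with at least 5 CPM. Named outside this rule were Icam1, as the other ligand that rose, and Itgb3, as a partner of Itgav. Tln1, which was not called, was named as the main talin. Vcam1 and Itga2b stand in more than 1 list. Libraries of a strain differed beyond counting noise. The same replicate numbers name mice of both strains. Deviations from the strain means correlated at 0.076 to 0.237 for same-numbered mice and at -0.262 to 0.103 for mice with different numbers. Whether same-numbered mice share a batch is not given in the sources used here, and the numbers were not taken as pairs in the main fit. Alternatives were DESeq2 1.42.0, limma 3.58.1 (voom), other scalings, a filter at 10 counts and leaving out each mouse. The n of 4 mice per strain limits precision. The edgeR p-values set the strain difference against the variation between mice. Exact permutation p-values count arrangements of the mice and cannot fall below 0.0286. The spread itself is given by the SD.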

Additional observations from a re-analysis of the deposited data

Results flagged for a closer look

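Itgal in B6.SLE123 mouse 1 lay at 8.79 log2 CPM, apart from the other 3 mice of its strain, whose median was 8.59. The gap to the nearest mouse took 0.834 of the range of the strain. This was 1 of 44 groups of values tested, and chance alone marks about 5% of groups. Without that mouse Itgal was still called higher.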

How the results depend on the processing

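The number of members called stayed at 9 under every other scaling, filter, tool and omitted mouse. With a more than 2-fold change required as well, 2 members were called. Over all genes, 7347 genes were called with the size factors of DESeq2 in edgeR, 7443 with upper quartile scaling, 6778 with at least 10 counts in every library, 7183 with a replicate block, 7207 by DESeq2 and 7376 by limma voom, against 7356. Whether the replicate numbers pair the mice is not known, and with the replicate block 9 members were called. In an exact sign-flip permutation test of numbered pairs each of the 6 ratios had p = 0.125, the smallest that 4 pairs allow. Without 1 mouse in turn the Itga4 to Itgb1 difference was 0.35 to 0.48 and lost its call in 6 of 8 cases, in all but those without C57BL/6 mouse 1 or 2. Itgb1, not called in any of them, had a log2 fold change of 0.0016 with upper quartile scaling and of -0.06391 to 0.02301 without 1 mouse in turn. Of 263 recomputed values of members, ratios and shares, 248 kept their direction and side of the threshold. The lowest count of a member in a mouse was 614, for Itgae in C57BL/6 mouse 2.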
